A study of Mus musculus with 8 samples.

Results

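Dual-specificity phosphatases, ZFP36 proteins and BTG proteins are products of feedback genes, which signals switch on and whose products damp those signals or the transcripts they induced. The genes described are 9, taken by symbol: Dusp1, Dusp2, Dusp5 and Dusp6, Zfp36, Zfp36l1 and Zfp36l2, and Btg1 and Btg2. Each symbol matched 1 Ensembl gene of the 51826 in the count table, and all 9 were among the 16484 genes tested after a filter on low counts. The data are gene counts from the spleen cells of 8 Balb/c mice: 4 had received tRA (all-trans retinoic acid, the active form of vitamin A) and 4 served as controls. The tRA was given by mouth daily from weaning at 1 mg/kg body weight until the spleens were taken at 3 months of age, without pristane, the oil used to induce lupus. By the study's methods the mice were female and the controls received the vehicle, canola oil, whereas the sample labels state the tRA dose for all 8 mice. The groups follow the sample titles. The comparison asks which transcripts of the spleen differ after oral tRA. Total counts on genes were between 30919272 and 37539631 per control mouse and between 31810417 and 35165876 per tRA mouse. Levels are CPM, counts divided by a library size that TMM had scaled, and fold changes are tRA over control.

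The phosphatases remove phosphate from MAP kinases. DUSP1, DUSP2 and DUSP5 are nuclear, DUSP6 is cytoplasmic, and DUSP5 and DUSP6 prefer ERK. ZFP36 (tristetraprolin) and its relatives ZFP36L1 and ZFP36L2 bind AU-rich elements in 3′ UTRs and recruit the CCR4-NOT deadenylase, which shortens the poly(A) tail and starts decay of the transcript. BTG1 and BTG2 bind the deadenylase too, restrain cell division, and help to keep lymphocytes quiescent.

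Spleen markers were present as the labelled tissue requires. The 5 B cell markers summed to 5358, 4672, 4801 and 4228 CPM in control mice 1 to 4 and 4907, 4798, 4649.8 and 4612 in tRA mice 1 to 4, with Cd79a the most abundant. The 6 T cell markers summed to 799, 857, 979 and 1023 CPM in control mice 1 to 4 and 952, 988, 1046 and 1007 in tRA mice 1 to 4, with Cd4 the most abundant. No defining lymphocyte marker was absent, and the median log2 fold changes of the lists were 0.00445 and 0.12. In tRA mice 3 and 4 most of the 9 genes were low, and in tRA mouse 1 most were above the controls, so values are given mouse by mouse and each fold change also without single mice.

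By the quasi-likelihood test of edgeR, 0 of the 9 genes had an FDR below 0.1, and neither did any other gene tested (0% of 16484). At an unadjusted p under 0.05 edgeR counted 0 of the 9 genes and 585 genes lower with tRA (3.55%) and 485 higher (2.94%). Without tRA mouse 1 the unadjusted count in edgeR was 5 of the 9 genes, Dusp1, Dusp2, Dusp5, Zfp36 and Btg2, all lower with tRA, where 1281 of all genes were lower (7.68%), and without any 1 of the 7 other mice it was 0 of the 9. Zfp36 alone was lower at an unadjusted p under 0.05 in DESeq2 (3.78% of all genes), in limma-voom (3.89%) and in edgeR without a filter on low counts (3.04%). DESeq2 called 44 genes (0.339% of those it gave an FDR) and limma-voom 1 (0.00607%) at an FDR under 0.1, with 0 of the 9 among them. The tRA and control mice overlapped for all 9 genes, whereas 1.63% of the genes tested had all 4 tRA mice below all 4 controls and 1.91% had them above. The log2 fold change was negative for all 9, from -0.44 for Dusp1 to -0.042 for Dusp6, with a median of -0.30. Over all genes tested the median was 0.00136 and 49.7% were negative. The sign of 3 of them, Dusp6, Zfp36l2 and Btg1, depends on single mice, as given with each gene. In bulk tissue, fewer cells that express a gene and less RNA of it per cell cannot be told apart.

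**Figure D1:**
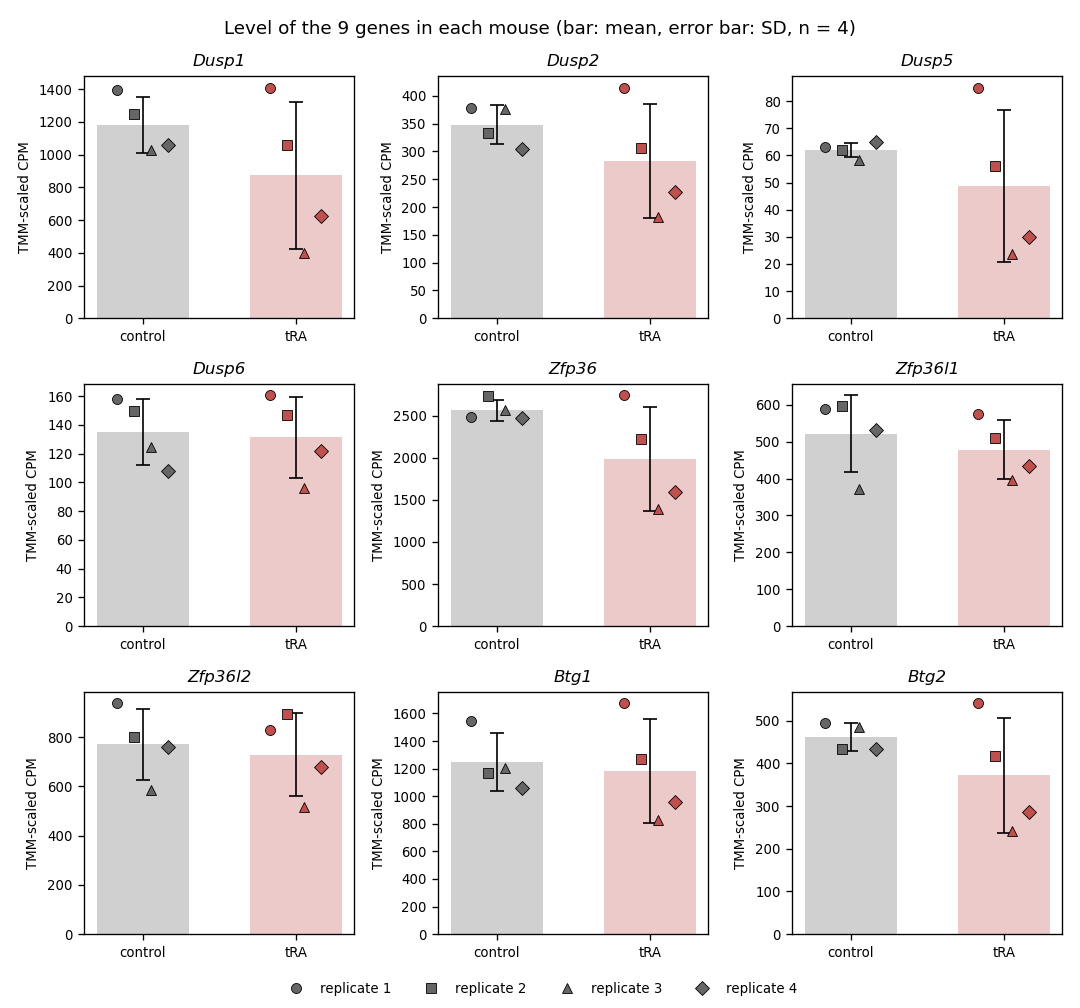
TMM-scaled CPM (vertical axes, from 0) of the 9 genes in each mouse, by group; bars are means, error bars SD over 4 mice, and each symbol is 1 mouse by replicate number. For Dusp1 the tRA mice spread from 399 to 1410.5 CPM and the control mice from 1026 to 1394, and tRA mouse 3 is the lowest tRA mouse in all 9 panels.

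Dusp1, an immediate early phosphatase of p38 and JNK (ENSMUSG00000024190, chromosome 17, 26505590 to 26562128 in GRCm38), measured 1394, 1248, 1026 and 1058 CPM in control mice 1 to 4 and 1410.5, 1058, 399 and 626 in tRA mice 1 to 4. The 2 lowest values were those of tRA mice 3 and 4, and tRA mouse 1 was above every control. The means were 1181 ± 172 CPM in the control mice and 873 ± 451 in the tRA mice (SD, n = 4 each), with a log2 fold change of -0.44 (SE 0.311, FDR 0.804, edgeR). Without tRA mouse 1 the log2 fold change of Dusp1 was -0.77, and without tRA mouse 3 it was -0.20. GENCODE places 4 other genes across the span of Dusp1, 2 of them on its own strand. Whether exons are shared was not examined, and how reads on more than 1 gene were counted is not given in the sources used here. Dusp5, Zfp36, Zfp36l1 and Zfp36l2 each overlap 1 annotated gene on the other strand, whose reads cannot be told apart if the counting ignored strand.

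Dusp2 (PAC-1), a phosphatase known from activated lymphocytes and myeloid cells (ENSMUSG00000027368, chromosome 2, 127336159 to 127338376), measured 377, 333, 377 and 305 CPM in control mice 1 to 4 and 415, 306, 182 and 227 in tRA mice 1 to 4. The order of the tRA mice was that of Dusp1, with mice 3 and 4 below every control and mouse 1 above. The means were 348 ± 35.4 CPM in the control mice and 282 ± 102 in the tRA mice (SD, n = 4 each), with a log2 fold change of -0.30 (SE 0.209, FDR 0.801, edgeR). Dusp5, the nuclear ERK phosphatase (ENSMUSG00000034765, chromosome 19, 53529109 to 53542431), measured 63.0, 61.9, 58.3 and 64.8 CPM in control mice 1 to 4 and 85.0, 56.0, 23.8 and 29.9 in tRA mice 1 to 4. The controls of Dusp5 lay within 58.3 and 64.8 CPM, and all 4 tRA mice lay outside that range, mouse 1 above it and mice 2, 3 and 4 below it. The means were 62.0 ± 2.71 CPM in the control mice and 48.7 ± 28.0 in the tRA mice (SD, n = 4 each), with a log2 fold change of -0.35 (SE 0.317, FDR 0.848, edgeR). Without tRA mouse 1 the values were -0.55 for Dusp2 and -0.76 for Dusp5, and without tRA mouse 3 they were -0.14 and -0.12.

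Dusp6, the cytoplasmic ERK phosphatase (ENSMUSG00000019960, chromosome 10, 99263231 to 99267489), measured 158, 149.5, 125 and 108 CPM in control mice 1 to 4 and 160.5, 147, 96.4 and 122 in tRA mice 1 to 4. Mouse 3 was again the lowest tRA mouse, but mouse 4 lay inside the range of the controls. The difference between the groups, -0.042 on the log2 scale (SE 0.16, FDR 0.972, edgeR), was smaller than its error. It was positive without control mouse 1, control mouse 2 or tRA mouse 3, reaching 0.0801.

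Zfp36 (ENSMUSG00000044786, chromosome 7, 28376784 to 28380253) measured 2480.0, 2736, 2567 and 2469 CPM in control mice 1 to 4 and 2739.6, 2226, 1389 and 1596 in tRA mice 1 to 4. The controls were close together, tRA mouse 1 was level with the highest of them, and tRA mice 2, 3 and 4 were below the lowest. The means were 2563 ± 123 CPM in the control mice and 1988 ± 615 in the tRA mice (SD, n = 4 each), with a log2 fold change of -0.37 (SE 0.182, FDR 0.778, edgeR). Without tRA mouse 1 the log2 fold change was -0.56 and its FDR 0.225 in edgeR, the lowest FDR of this gene in any setting run, where its FDR ranged up to 0.999.

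Zfp36l1, which with ZFP36L2 limits cell cycle entry in developing lymphocytes (ENSMUSG00000021127, chromosome 12, 80107754 to 80113013), measured 587, 596, 372 and 531 CPM in control mice 1 to 4 and 575, 511, 396 and 433 in tRA mice 1 to 4. Its lowest value was that of control mouse 3, below all 4 tRA mice. Zfp36l2 (ENSMUSG00000045817, chromosome 17, 84183931 to 84187947) measured 937, 801, 587 and 759 CPM in control mice 1 to 4 and 829, 892, 514 and 678 in tRA mice 1 to 4. Control mouse 3 was the lowest control here too, and tRA mouse 3 the lowest of all. The log2 fold changes were -0.12 (SE 0.157, FDR 0.885) for Zfp36l1 and -0.0819 (SE 0.177, FDR 0.94) for Zfp36l2 in edgeR, both smaller than their errors. The value of Zfp36l2 was 0.0522 without tRA mouse 3 and 0.026 without control mouse 1.

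Btg1 (ENSMUSG00000036478, chromosome 10, 96617006 to 96622809), which is highly expressed in resting lymphocytes, measured 1546, 1169, 1207 and 1059.9 CPM in control mice 1 to 4 and 1673, 1272, 827 and 958 in tRA mice 1 to 4. Mice 3 and 4 of the tRA group were below every control, mouse 1 was above every control, and the log2 fold change was -0.0747 (SE 0.201, FDR 0.956, edgeR). It was positive without tRA mouse 3 (0.0623), without tRA mouse 4 (0.0137) and without control mouse 1 (0.0465). Btg2, a p53 target and immediate early gene (ENSMUSG00000020423, chromosome 1, 134075170 to 134079120), measured 496, 435, 486 and 433 CPM in control mice 1 to 4 and 541, 418, 242 and 287 in tRA mice 1 to 4. No tRA mouse lay inside the range of the controls: mouse 1 was above every control and mice 2, 3 and 4 below. The means were 463 ± 33.2 CPM in the control mice and 372 ± 135 in the tRA mice (SD, n = 4 each), with a log2 fold change of -0.32 (SE 0.207, FDR 0.793, edgeR). Without tRA mouse 1 the log2 fold change of Btg2 was -0.55, and without tRA mouse 3 it was -0.16.

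Counted over the 9 genes, tRA mouse 3 was below every control for 8, tRA mouse 4 for 6, tRA mouse 2 for 3 and tRA mouse 1 for 0. Over all genes tested the shares were 23.1%, 23.8%, 17.2% and 18.3%. The only tRA mouse above every control for any of the 9 was mouse 1, for 7 genes, where 17.7% of all genes tested had it above; the shares for mice 2, 3 and 4 were 17.4%, 23.8% and 23.6%. Mouse 3 was the lowest tRA mouse for all 9, against 26.3% of all genes tested, while mice 1, 2 and 4 were lowest for 0 of the 9 and for 33.7%, 17.8% and 22.3% of all genes. The 9 genes together took 0.817%, 0.687%, 0.427% and 0.506% of the counts in tRA mice 1 to 4 and 0.791%, 0.76%, 0.656% and 0.679% in control mice 1 to 4.

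The SD of log2 CPM was larger among the tRA than among the control mice for 8 of the 9 genes, all but Zfp36l1, and for 46.7% of all genes tested. The median ratio of these SDs, tRA over control, was 3.47 over the 9 genes and 0.95 over all genes. It was highest for Dusp5, with an SD of 0.0633 among the controls and 0.83 among the tRA mice on the log2 scale.

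Levels of different genes were compared as CPM per kb of exon. In the control mice Zfp36 was the highest of the 9 at 739 ± 35.5 (SD, n = 4), and Dusp1 followed at 357 ± 52.0. The ranges of these did not overlap with each other or with that of any other of the 9. Btg1 at 236 ± 39.8 came next, with a range that overlapped that of Zfp36l2 at 218 ± 40.9 only. Zfp36l1 at 174 ± 34.7, Dusp2 at 174 ± 17.7 and Btg2 at 169 ± 12.1 overlapped with Zfp36l2 or with each other and could not be ordered among themselves beyond their spread. The lowest were the ERK phosphatases, Dusp6 at 43.2 ± 7.32 and Dusp5 at 25.1 ± 1.10, whose ranges were apart. With tRA the means had the same order, from 573 ± 177 for Zfp36 to 19.7 ± 11.3 for Dusp5, and the SD was larger than in the controls for all but Zfp36l1.

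Across the 8 mice the 9 genes varied together. The Pearson correlation of log2 CPM was above 0 in all 36 pairs, with a median of 0.814, from 0.535 for Dusp2 and Zfp36l1 to 0.992 for Dusp2 and Btg2. Spearman's rho had a median of 0.786. With the group means taken off the median Pearson r was 0.854. Without the 2 mice farthest from the median of the first gene of a pair it was 0.647 and 33 of 36 pairs were above 0, so part of the likeness rests on these mice. These are descriptions over 8 mice, which fall into 2 groups and share a sequencing lane. The same measures were not computed over pairs of other genes, so whether the 9 genes stand out by them is not known.

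Of 9110 other genes with a mean of at least 10 CPM, those most like Dusp1 were Csrnp1 (r = 0.993), Mafk (0.991) and Rhob (0.99). For Dusp2 they were Ifrd1 (r = 0.996), Dph3 (0.992) and Btg2 (0.992). Dusp5 was most like Nr4a1 (r = 0.995), Nfkbid (0.994) and Gm26532 (0.992). The orphan nuclear receptor Nr4a1, a marker of recent antigen receptor signalling, measured 1149.8, 952, 956 and 1046 CPM in control mice 1 to 4 and 1679.5, 946, 159 and 233 in tRA mice 1 to 4. Like Dusp5, it was above every control in tRA mouse 1 and far below them in tRA mice 3 and 4. Btg2 was most like Ppp1r15a (r = 0.999), Dusp2 (0.992) and Pim3 (0.99). Ppp1r15a (GADD34), which directs the dephosphorylation of eIF2α, measured 905, 776, 917 and 803 CPM in control mice 1 to 4 and 1037, 733, 339 and 428 in tRA mice 1 to 4. Zfp36 was most like Fos (r = 0.988), Ubald2 (0.987) and Slc3a2 (0.987), and Zfp36l1 was most like Egr3 (r = 0.981), Irf2bpl (0.975) and Sf1 (0.971). Both Fos and Egr3 are immediate early transcription factors. The genes most like Dusp6 were Ugcg (r = 0.985), Plek (0.969) and Homer1 (0.966). Btg1 was most like Ywhaz (r = 0.991), Hnrnph2 (0.984) and Arf6 (0.982), and Zfp36l2 was most like Ddx5 (r = 0.948), Irf2bp2 (0.932) and Tsc22d2 (0.931). Of the 27 pairs named here, in which Dusp2 with Btg2 stands under both genes, 0 had a partner past an FDR under 0.1 in edgeR, as 0 of all genes tested did. Without the 2 mice farthest from the member's median, r for these pairs lay between 0.781 and 0.992 (n = 6 mice). The partners were picked as the highest of 9110 values of r over the same mice, so high values are built in and these 6 mice are no separate check.

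The immediate early transcription factors, which growth factor and antigen receptor signals induce, had a summed level that was lowest in tRA mice 3 and 4. Of 16 such genes 0 passed an FDR under 0.1 in edgeR, 5 were lower at an unadjusted p under 0.05 (Fosb, Jun, Jund, Egr1 and Ier5), and all 16 log2 fold changes were negative, with a median of -0.45. Their summed level was 18527, 17123, 16342 and 14626 CPM in control mice 1 to 4 and 17572, 13465, 6273 and 7920.1 in tRA mice 1 to 4. Fosb, Jun and Egr1 had all 4 tRA mice below all 4 controls, tRA mouse 1 included, which none of the 9 genes had. For Jun the highest tRA mouse, mouse 1, was at 2094 CPM and the lowest control at 2122. The most abundant over both groups was Fos, at 3337, 3230.3, 3302 and 2866 CPM in control mice 1 to 4 and 3563, 2762, 1117 and 1420.2 in tRA mice 1 to 4, and in the controls Fosb, with a mean of 3319 CPM against 3184 for Fos. The largest log2 fold changes were -0.80 for Egr1, -0.79 for Jund and -0.71 for Fosb. Their part in the values of the 9 genes was not tested.

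Of the 6 other MAP kinase phosphatases, 4 had negative fold changes (median -0.17, 0 past the FDR), and they summed to 134, 125, 126 and 142 CPM in control mice 1 to 4 and 152, 141, 110.0 and 121 in tRA mice 1 to 4. Dusp10, the most abundant, measured 73.9, 60.7, 63.0 and 67.4 CPM in control mice 1 to 4 and 88.5, 72.5, 49.9 and 61.8 in tRA mice 1 to 4, inside the range of the controls in tRA mice 2 and 4, above it in mouse 1 and below it in mouse 3. Dusp8 (-0.29) and Dusp4 (-0.28) were lowest in tRA mice 3 and 4, at 8.95 and 9.47 CPM for Dusp4, and Dusp7 was 0.24. The counts of Dusp8 were low, between 0.367 and 4.12 CPM over the mice of both groups. Dusp16, a phosphatase of JNK, measured 21.7, 20.9, 21.4 and 26.2 CPM in control mice 1 to 4 and 18.8, 19.8, 18.2 and 19.5 in tRA mice 1 to 4, and it was the only one of these 6 with all 4 tRA mice below all 4 controls. Its log2 fold change was -0.24 (SE 0.0907, FDR 0.757, edgeR), at an unadjusted p under 0.05. Among 9 inhibitors of signalling to ERK, which are 8 Sprouty, Spred and Dok genes and Errfi1, an inhibitor of EGF receptor family kinases, the median was -0.0798, and the sum was 305, 309, 336 and 319.5 CPM in control mice 1 to 4 and 344, 294, 291 and 288 in tRA mice 1 to 4. The most abundant, Dok2, had a log2 fold change of -0.0552, and the largest were -0.59 for Spred3, -0.33 for Spry1 and -0.17 for Spry4. Over the mice of both groups Spred3 lay between only 0.856 and 1.93 CPM and Spry4 between 0.856 and 1.81.

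The list of kinases held 8 MAP kinases and 9 kinases above them in the cascades. Together the 17 summed to 1515, 1459, 1443 and 1442 CPM in control mice 1 to 4 and 1511, 1441, 1461 and 1489 in tRA mice 1 to 4, with 7 negative log2 fold changes, 10 positive and a median of 0.00947. Araf, the most abundant, was 0.0305, and the largest were -0.66 for Mapk13, -0.15 for Map2k2 and -0.14 for Mapk3. Mapk13 lay between only 0.813 and 2.62 CPM over the mice of both groups.

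Genes of the deadenylase that ZFP36 and BTG proteins recruit had a median fold change near that of all genes. Of 14 genes for CCR4-NOT subunits and the other BTG and TOB proteins, 4 were negative and 10 positive (median 0.0372), and their sum, 1581, 1483, 1480.3 and 1538 CPM in control mice 1 to 4 and 1624, 1532, 1329 and 1534 in tRA mice 1 to 4, was lowest in tRA mouse 3. The 3 antiproliferative genes of this list, Tob1 (-0.16), Tob2 (-0.29) and Btg3 (-0.41), were negative, and Tob2 measured 229.8, 225, 226 and 256 CPM in control mice 1 to 4 and 271, 232, 116 and 150.3 in tRA mice 1 to 4. Among the subunits the largest log2 fold change was 0.18 for Cnot7. A further list held 10 other genes linked to the fate of AU-rich or stem-loop transcripts, not all of them decay factors. Their median was 0.0178 and the sum 1204, 1129.5, 1094 and 1066 CPM in control mice 1 to 4 and 1172, 1157, 1060.0 and 1109 in tRA mice 1 to 4, with 0.0627 for Hnrnpd, the most abundant, 0.19 for Tia1, -0.18 for Zc3h12a and -0.14 for Mapkapk2.

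Transcripts with AU-rich elements are the known targets of ZFP36. Of 15 listed, Il6 and Il23a did not pass the filter on low counts, and of the other 13 there were 8 negative and 5 positive (median -0.15, 0 past the FDR). The 13 summed to 288, 394, 366 and 385 CPM in control mice 1 to 4 and 515, 401, 191 and 276 in tRA mice 1 to 4, highest in tRA mouse 1 and lowest in tRA mouse 3. Il1b, the most abundant, measured 94.1, 151, 118 and 144 CPM in control mice 1 to 4 and 216, 162, 62.8 and 110.2 in tRA mice 1 to 4. It was highest and lowest in the same mice. The largest log2 fold changes were -0.55 for Ifng, 0.53 for Csf2 and -0.39 for Il10, with Csf2 under 1 CPM in every mouse.

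**Figure D2:**
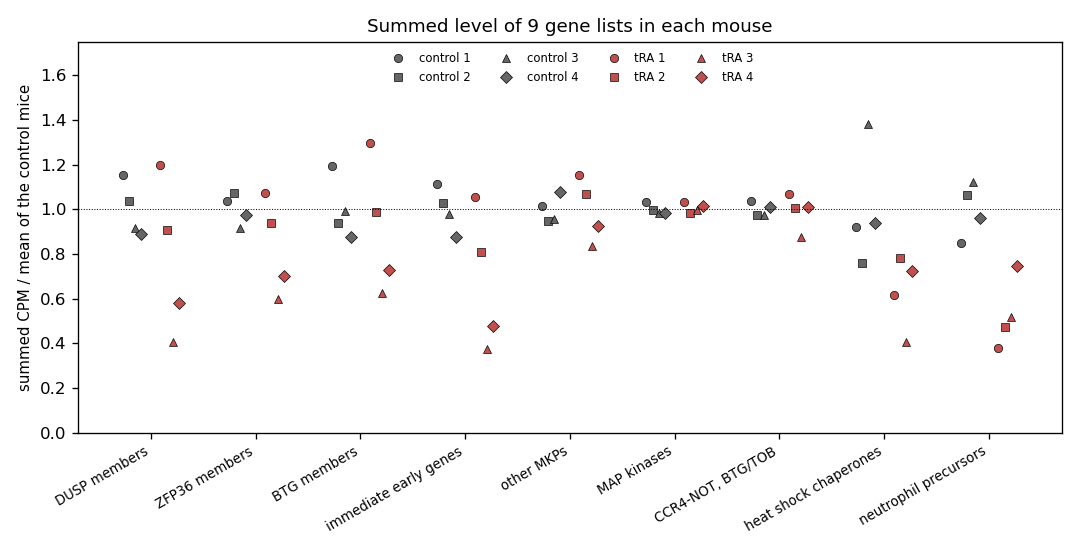
Summed CPM of 9 of the gene lists in each mouse, divided by the mean of the 4 control mice (vertical axis, no unit), with 1 symbol per mouse and the dotted line at the control mean. The sums of the 3 feedback families and of the immediate early genes are low in tRA mice 3 and 4 and not in tRA mouse 1, while the neutrophil precursor sum is lowest in tRA mouse 1, at 242 CPM.

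The sums of neutrophil precursor genes, heat shock chaperones and plasma cell markers were lower in tRA mouse 1 than in every control. So were those of the monocyte and macrophage markers and of the dendritic cell markers, given below. Of 8 neutrophil precursor granule genes all 8 had negative fold changes, with a median of -0.90 and 8 at an unadjusted p under 0.05 in edgeR. Their sum was 542, 680.0, 715 and 614 CPM in control mice 1 to 4 and 242, 301, 329 and 477 in tRA mice 1 to 4, lowest in tRA mouse 1, where most of the 9 genes were highest. Ngp was the most abundant (-0.92), and the largest were -1.23 for Camp, -1.03 for Elane and -0.99 for Prtn3. Heat shock chaperones summed to 6566, 5402, 9847 and 6674 CPM in control mice 1 to 4 and 4381, 5573, 2903 and 5163 in tRA mice 1 to 4, with all 9 negative, a median of -0.88, and tRA mice 3 and 1 lowest. The most abundant was Hspa8 (-0.34), and the largest were -1.35 for Hspa1a, -1.13 for Hspa1b and -1.09 for Hsph1. Plasma cell markers summed to 693, 652, 735 and 839 CPM in control mice 1 to 4 and 471, 647, 527 and 537 in tRA mice 1 to 4 (median -0.31), with -0.46 for Jchain, the most abundant, -0.78 for Tnfrsf17 and -0.31 for Mzb1. The part of these lists in the values of the 9 genes was not tested.

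The remaining cell type lists had 0 genes past the FDR in edgeR. Median log2 fold changes were -0.27 for 6 mature neutrophil markers, of which Csf3r was the most abundant over both groups (0.25), S100a9 the most abundant in the controls (-0.58) and -0.63 for S100a8 the largest. These 6 summed to 544, 904, 710.4 and 693 CPM in control mice 1 to 4 and 641, 586, 463 and 825 in tRA mice 1 to 4. The medians were -0.0427 for 7 monocyte and macrophage markers (Vcam1, -0.0427), -0.12 for 6 dendritic cell markers (Itgax, -0.0711) and -0.0651 for 5 NK cell markers (Gzma, -0.13). The monocyte and macrophage markers summed to 393, 505, 423 and 337 CPM in control mice 1 to 4 and 308, 419.6, 477 and 377 in tRA mice 1 to 4. The sum of the dendritic cell markers was 137, 166, 146 and 208 CPM in control mice 1 to 4 and 119.7, 156, 175 and 159.9 in tRA mice 1 to 4, and that of the NK cell markers 254, 331, 394 and 247 CPM in control mice 1 to 4 and 311, 309, 309.6 and 276 in tRA mice 1 to 4. In all 3 the mice of both groups overlapped. Erythroid markers had a median of 0.35, and their sum varied widely within both groups, 762, 1487, 2248 and 483 CPM in control mice 1 to 4 and 2136, 606, 3428 and 576 in tRA mice 1 to 4, with Hbb-bs the most abundant. Of 5 platelet markers Ppbp did not pass the filter, and the others had a median of -0.23 and summed to 7.53 CPM on average in the controls.

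Genes under other known inducers of Btg2, Zfp36 and Dusp1 were read too. Eda2r, 1 of 11 p53 targets, did not pass the filter. The rest summed to 883, 826, 894 and 829.5 CPM in control mice 1 to 4 and 976, 888, 667 and 772 in tRA mice 1 to 4, highest in tRA mouse 1 and lowest in tRA mice 3 and 4. Their median was -0.20, with 6 negative and 4 positive. Sesn1, the most abundant over both groups, was at 0.0404, and Pmaip1, the most abundant in the controls, at -0.41. Pmaip1 alone measured 243, 190, 51.9 and 76.7 CPM in tRA mice 1 to 4, so it weighs heavily in the order of the sums. The largest were -0.68 for Cdkn1a, -0.57 for Bbc3 and -0.41 for Phlda3, with Phlda3 under 1 CPM in every mouse. The 6 glucocorticoid-induced genes had a median of -0.15 and summed to 1617, 1316, 1168 and 1207 CPM in control mice 1 to 4 and 1720.1, 1296, 656 and 883 in tRA mice 1 to 4, again highest in tRA mouse 1 and lowest in tRA mice 3 and 4. Tsc22d3 (GILZ), the most abundant, measured 1162, 859.8, 783 and 749 CPM in control mice 1 to 4 and 1198, 846, 372 and 537 in tRA mice 1 to 4, in the same order of tRA mice as Dusp1. Per1 was -0.26 and Ddit4 -0.32, but Ddit4 was lowest in tRA mouse 1, at 28.3 CPM. Of these 6 genes 4 were negative and 2 positive, Fkbp5 (0.17) and Sgk1 (0.00273). Of 8 lymphocyte quiescence genes the median was 0.0274 and the sum 3264, 2629, 2723 and 2608 CPM in control mice 1 to 4 and 3362, 2559.5, 2059 and 2384 in tRA mice 1 to 4, with -0.52 for Klf2, the most abundant, 0.33 for Il7r and 0.21 for Tcf7. Klf2 measured 1577, 1045, 1077 and 874 CPM in control mice 1 to 4 and 1424, 818, 417 and 524 in tRA mice 1 to 4, and it was the only one of this list with a negative fold change.

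Counted over the lists other than the immediate early, neutrophil precursor and MAP kinase phosphatase genes, those lower with tRA at an unadjusted p under 0.05 in edgeR were 7 of 9 heat shock chaperones, 3 of 5 plasma cell markers (Jchain, Tnfrsf17 and Mzb1), 2 of 6 mature neutrophil markers (S100a8 and S100a9), 2 of 17 kinases (Mapk13 and Map2k2), 2 of 13 transcripts with AU-rich elements (Ifng and Lta), Spred3 and Bbc3. Those higher were Tia1, Il7r and Tcf7. All 4 tRA mice were below all 4 controls for 6 of 8 neutrophil precursor genes, 3 heat shock chaperones (Hspa1a, Dnajb1 and Bag3), 3 plasma cell markers (Sdc1, Tnfrsf17 and Mzb1), Spred3, Mapk13, Map2k2 and Lta. They were above all 4 controls for Mapk14, Cnot4 and Cnot9.

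The promoters of the 9 genes were searched for motifs of signal-responsive factors. The windows, from RefSeq (GRCm38.p6), ran from 250 bases before to 50 after the start of transcription. The table matched 8 of the 9 genes, not Zfp36l2, and 32851 promoters in all. The cAMP response element TGACGTCA was in 2 of the 8, Dusp1 and Btg2, and in 1.79% of all promoters. The serum response CArG box was in Dusp5, with adjoining copies, and in Zfp36, against 1.63% of all. The AP-1 motif TGANTCA was in Zfp36l1 (7.81% of all), the TATA box TATAAA in Btg1 and Zfp36l1 (13.6%), the E-box CACGTG in Dusp1 and Dusp2 (7.15%), and the NF-kB site in none of the 8 (4.51%). Both strands were read, and a match is a description of these letters only. The 250 bases before the start are printed 5′ to 3′ on the gene's strand for the 4 genes with a cAMP or serum response motif, with every motif searched in capitals: Dusp1 at chr17:26508473-26508722 (minus strand), Btg2 at chr1:134079156-134079405 (minus strand), Dusp5 at chr19:53528895-53529144 (plus strand) and Zfp36 at chr7:28379229-28379478 (minus strand).
Dusp1: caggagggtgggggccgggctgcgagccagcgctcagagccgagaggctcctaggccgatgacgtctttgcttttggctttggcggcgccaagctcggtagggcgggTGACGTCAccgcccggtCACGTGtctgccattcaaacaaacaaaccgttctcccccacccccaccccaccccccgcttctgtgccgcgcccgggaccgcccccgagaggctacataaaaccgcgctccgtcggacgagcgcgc
Btg2: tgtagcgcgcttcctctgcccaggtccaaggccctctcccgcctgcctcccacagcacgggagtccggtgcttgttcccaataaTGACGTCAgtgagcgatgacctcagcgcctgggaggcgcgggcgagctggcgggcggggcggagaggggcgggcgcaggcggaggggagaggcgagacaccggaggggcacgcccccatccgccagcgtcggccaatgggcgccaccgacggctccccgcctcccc
Dusp5: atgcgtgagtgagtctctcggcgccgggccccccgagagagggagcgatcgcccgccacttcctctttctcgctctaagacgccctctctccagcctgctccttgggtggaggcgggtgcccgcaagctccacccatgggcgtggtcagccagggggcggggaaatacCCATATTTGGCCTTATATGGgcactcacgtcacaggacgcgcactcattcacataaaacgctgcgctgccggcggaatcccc
Zfp36: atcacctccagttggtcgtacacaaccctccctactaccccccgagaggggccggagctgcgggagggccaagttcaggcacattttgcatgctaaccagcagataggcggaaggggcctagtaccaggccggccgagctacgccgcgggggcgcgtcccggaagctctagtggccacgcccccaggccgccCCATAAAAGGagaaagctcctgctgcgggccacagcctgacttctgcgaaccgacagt

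The 9 transcripts were also read for TATTTAT, a core of the AU-rich element that ZFP36 proteins bind, in 1 GENCODE transcript per gene; this search was added after the values were seen. It was present in the 3′ UTR of 6 of the 9 genes and of 26.6% of 12942 protein-coding genes tested. It occurred 3 times in Dusp1, Zfp36, Zfp36l1 and Zfp36l2, once in Dusp2 and Btg2, and not in Dusp5, Dusp6 and Btg1, and 3.23% of the protein-coding genes had 3 or more. The median length of these UTRs was 1189 bases, against 927 over all. A stretch of 30 bases around a match is printed for 3 genes, with the matches in capitals (GRCm38): Zfp36 at chr7:28376958-28376987 (minus strand), which holds 2 of its 3, Dusp1 at chr17:26506159-26506188 (minus strand) and Dusp2 at chr2:127338303-127338332 (plus strand).
Zfp36: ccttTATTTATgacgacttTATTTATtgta
Dusp1: ggagctggtcctTATTTATttaacaccccc
Dusp2: aacagcactttaTATTTATatagaacattg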

How the data were processed

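Total RNA of splenocytes was sequenced by the authors (Illumina TruSeq, 1 HiSeq2500 lane) and raw counts per Ensembl gene were deposited. The study's methods name Bowtie2/Tophat2 and HTSeq, whereas the submitters' processing notes name STAR 2.5.2b, featureCounts 1.5.1 and DESeq2 1.26.0 with GRCm38, and use of strand in counting is not given in the sources used here. The deposited DESeq2 comparison (mean, log2 fold change, error and p-values) was not used.

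The 9 genes and all lists were chosen with earlier results of these data known. Symbols, positions and exon lengths came from GENCODE M21, which has 51633 of the 51826 gene IDs. Counts were filtered by filterByExpr (minimum 10), scaled by TMM and tested in R 4.3.3 with edgeR 4.0.16 (quasi-likelihood, Benjamini-Hochberg FDR under 0.1 over all 16484 genes). Alternatives used DESeq2 1.42.0, limma 3.58.1 (voom), RLE scaling, library size alone, no filter, at least 10 counts in every sample, robust dispersions, the replicate number as a block and each mouse left out. The edgeR, DESeq2 and limma-voom fits of the filtered counts were tested on simulated counts with known changes, and the other alternatives were not. Named beside the 9 genes were, per list, the most abundant gene over both groups and up to 3 with the largest fold change, and per gene the 3 others (mean of at least 10 CPM) with the highest Pearson r. Tob1, Jun, Ier5, Dusp16, Pmaip1, Lta, Dnajb1, Bag3, Sdc1, Mapk14, Cnot4, Cnot9, Fkbp5 and Sgk1 were named after their values were seen. Mice of one group differed by more than sampling noise (chi-square per degree of freedom 14.3 to 73.9). Figures were drawn with matplotlib 3.10.9 in Python 3.11.15.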

Additional observations from a re-analysis of the deposited data

How the results depend on the processing

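None of the 9 genes passed the FDR in any of the 16 alternative fits, and none had groups that do not overlap under library size alone or RLE scaling. The count of all genes past the FDR, 0 with edgeR, was 44 with DESeq2, 6 without a filter on low counts and 1 with limma-voom, and ranged from 0 to 3 with 1 mouse left out, the 3 being without tRA mouse 4; the cause was not tested. With 1 mouse left out the log2 fold changes ranged from -0.77 to -0.20 for Dusp1, -0.55 to -0.14 for Dusp2, -0.76 to -0.12 for Dusp5, -0.15 to 0.0801 for Dusp6, -0.56 to -0.23 for Zfp36, -0.26 to -0.044 for Zfp36l1, -0.20 to 0.0522 for Zfp36l2, -0.29 to 0.0623 for Btg1, -0.55 to -0.16 for Btg2. Every lowest value but those of Zfp36l1 and Zfp36l2 (without control mouse 3) was without tRA mouse 1, and every highest was without tRA mouse 3. The sign changed for Dusp6, Zfp36l2 and Btg1, whose values in the main fit were already near 0, at -0.042, -0.0819 and -0.0747. Scaling by library size alone moved the median log2 fold change of all genes from 0.00136 to 0.0306. Whether the replicate numbers pair the mice is not given in the sample titles. Deviations of same-numbered mice correlated at 0.157, -0.0229, -0.014 and 0.259 over all genes tested, which cannot settle it. With the replicate number as a block the SE was smaller for each of the 9 genes, for Dusp1 0.201 against 0.311 in the main fit. With the replicate block 0 genes passed the FDR, 2 of the 9, Dusp1 and Zfp36, were lower at an unadjusted p under 0.05 (4.34% of all genes), and the log2 fold changes were -0.58 for Dusp1, -0.36 for Dusp2, -0.52 for Dusp5, -0.052 for Dusp6, -0.42 for Zfp36, -0.11 for Zfp36l1, -0.0936 for Zfp36l2, -0.11 for Btg1, -0.38 for Btg2. With 4 mice a group and the spread seen with tRA, differences of this size were not separable from the spread between mice.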
